A study of Mus musculus with 26 samples.

Results

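The genes of heme synthesis and iron uptake described here are 9 rows of a mouse RNA-seq table, chosen by gene symbol out of 52609 gene rows. They are *Alas1*, *Alas2*, *Alad*, *Uros*, *Urod*, *Cpox*, *Fech*, *Slc25a37* and *Tfrc*, and each symbol has 1 row. *Ppox*, which encodes another enzyme of the pathway, is given beside them. The study asked where the de novo DNA methyltransferases DNMT3A and DNMT3B act during development, and it sequenced RNA from 10 libraries, 1 for each condition. Liver and heart came from 2 E14.5 male C57BL6 embryos. Embryo 4 was labelled *Dnmt3a* WT, and embryo 25 was labelled *Dnmt3a* KO, both from crosses of heterozygous mice. Mouse embryonic fibroblasts (MEFs, passage 1, from E14.5 male C57BL6 embryos) were labelled *Dnmt3a* WT or *Dnmt3a* KO, and each was grown with the solvent DMSO or with GSK126, an inhibitor of the histone methyltransferase EZH2. The 2i-MEFs (passage 1, E14.5, female, F1 of 129X1/SvJ and MSM/Ms) were *Dnmt3a* KO or *Dnmt3b* KO. They are fibroblasts of chimeric embryos that were made with CRISPR-edited ES cells grown in 2i medium, and cells of the host embryo were removed by drug selection and sorting. A WT 2i-MEF RNA library was not analysed here.

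Heme is an iron-containing ring that carries oxygen in hemoglobin and electrons in cytochromes, and every cell that respires makes some of it. Synthesis starts in mitochondria with 5-aminolevulinate synthase, which has a form found in most cells (ALAS1) and a form of red blood cell precursors (ALAS2). ALAD, UROS and UROD act next, in the cytosol, where the ring is built, and CPOX, PPOX and FECH finish it in mitochondria, where FECH inserts the iron. The transferrin receptor TFRC brings iron into the cell, and mitoferrin-1, the product of *Slc25a37*, carries it into mitochondria. At E14.5 the fetal liver is the main site of red cell formation, while primitive red cells made earlier in the yolk sac still circulate.

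Of the 9 genes, 8 were far higher in liver than in heart and in fibroblasts, and *Alas1* was the exception. *Alas2* was high in liver, intermediate in heart and close to 0 in fibroblasts. The other pathway enzymes were measured in all 10 libraries. Between labelled genotypes, 0 of 9 genes differed by 2-fold in liver and in heart, 0 of the 8 tested in 2i-MEFs and 1 of the 8 tested in MEFs, against 3.12% to 7.92% of all genes. *Alas2* was too low in fibroblasts to be tested.

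Promoter sequences of the reference genome are shown first for *Alas2* and *Cpox*, because each gene was many times higher in liver and each window holds a match to the letters bound by GATA factors, the class of GATA1, a regulator of erythroid genes. The RefSeq table (GRCm38.p6) gave 11 windows of 300 bases, 250 before and 50 after a transcription start, for 7 of the 9 genes. *Slc25a37* and *Fech* are without one. The letters GATA were searched on both strands where an adenine or thymine stands before them and an adenine or guanine after them. Capitals mark the matches, which lie on the opposite strand here, and only bases before the first annotated exon are printed, in the direction of transcription.
Alas2, chrX:150547167-150547374, plus strand: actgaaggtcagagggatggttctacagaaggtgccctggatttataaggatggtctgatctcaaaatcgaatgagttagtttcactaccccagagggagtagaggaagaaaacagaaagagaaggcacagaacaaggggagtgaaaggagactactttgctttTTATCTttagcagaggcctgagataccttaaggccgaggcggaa
Cpox, chr16:58669958-58670207, plus strand: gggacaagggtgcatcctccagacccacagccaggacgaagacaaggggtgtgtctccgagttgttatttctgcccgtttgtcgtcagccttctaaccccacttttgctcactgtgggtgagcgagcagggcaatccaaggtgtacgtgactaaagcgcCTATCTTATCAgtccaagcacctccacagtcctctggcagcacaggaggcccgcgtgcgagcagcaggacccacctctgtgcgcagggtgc
The *Alas2* match AGATAA begins 86 bases before the RefSeq start. In *Cpox* a match to TGATAA begins 86 bases before the start. It overlaps by 1 base another match, AGATAG, that begins 91 bases before. Another *Cpox* match lies 4 bases after the start and is not printed. *Uros* held 2 matches in 1 of its 2 windows, and *Alas1*, *Alad*, *Urod* and *Tfrc* held none. In all, 3 of 11 windows (27.3%) held a match, beside 29.8% of 32817 windows of all genes. Windows with 3 or more matches, as in *Cpox*, made up 1.76% of all windows. The letters CCNCNCCC, a form of the CACCC box bound by KLF1, were found on either strand in 10 of 11 windows and in 49.5% of all windows, and neighbouring matches of this motif can overlap. The 2 windows of *Alas1*, of *Alad* and of *Tfrc* overlap each other and share some of these matches, so the 11 windows are not independent and neither count can be read as a difference from all windows. These matches describe letters and not bound sites.

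In the *Dnmt3a* check of the labels, liver labelled KO had 12.7 FPKM (read fragments divided by transcript length and by library size) against 53.5 in WT liver, and *Dnmt3a* KO 2i-MEFs had 4.21 against 23.9 in *Dnmt3b* KO 2i-MEFs. The label was not followed in heart, where the library labelled KO had 125.0 FPKM against 55.0, nor in MEFs, where both libraries labelled KO had more (85.7 and 84.5) than both WT libraries (26.1 and 19.3). The row covers the whole gene, and how much of it is RNA of a disrupted allele was not tested. *Dnmt3b* was low throughout and had 0.817 FPKM in *Dnmt3b* KO and 1.81 in *Dnmt3a* KO 2i-MEFs. Markers followed the tissue: the 8 hepatocyte markers summed to 15317 to 22631 FPKM in liver and 13.1 to 55.9 in heart, and the 8 cardiomyocyte markers to 26508 to 29628 in heart and 18.6 to 70.1 in liver. The 8 fibroblast markers summed to 6156 to 20737 FPKM in the 6 fibroblast libraries. The 8 macrophage markers summed to 522 to 810 FPKM in the 4 MEF libraries and to 4.08 to 9.72 in 2i-MEFs. Estimated depth ran from 9146582 to 26142290 mapped reads, and a single read of a transcript 2000 bases long stood for 0.0213 to 0.0610 FPKM.

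**Figure D1:**
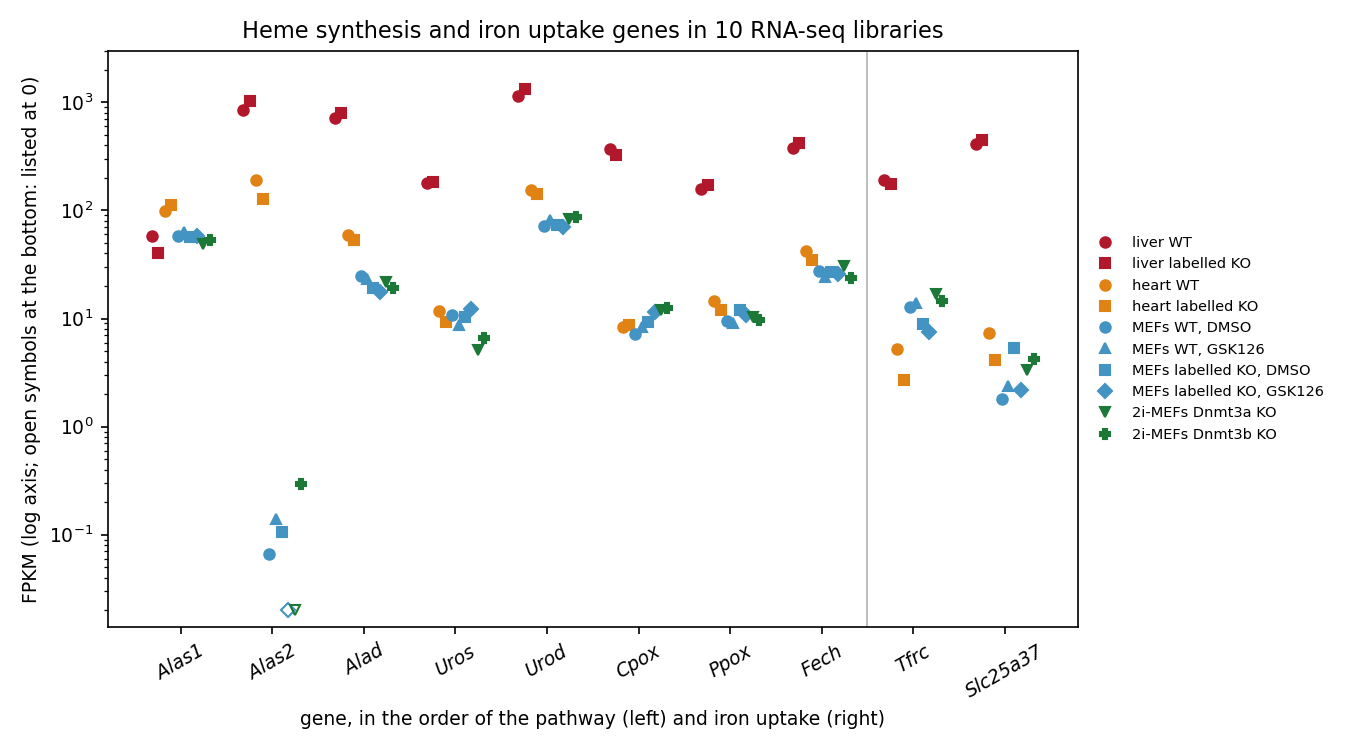
FPKM on a log axis for the 9 genes and for *Ppox*, 1 symbol for each of the 10 libraries and open symbols for libraries listed at 0. Both liver libraries (red) lie above all other libraries for every gene but *Alas1*, whose highest value is 113 FPKM in heart labelled KO.

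The 2 genes of the first step differed in opposite directions between liver and heart, and both had more in heart than in fibroblasts. *Alas2* (chrX:150547375-150570638) had 849 FPKM in WT liver and 1035 in liver labelled KO. In heart it had 191 FPKM in the WT embryo and 128 in the embryo labelled KO. In fibroblasts it had 0.0658 FPKM (DMSO) and 0.140 (GSK126) in WT MEFs, 0.106 in MEFs labelled KO with DMSO and 0.296 in *Dnmt3b* KO 2i-MEFs, and it was listed at 0 in MEFs labelled KO with GSK126 and in *Dnmt3a* KO 2i-MEFs. These fibroblast values correspond to at most 5 reads in any library, and neither their order nor a fold against them can be read at this depth. *Apex2*, a gene on the opposite strand that overlaps *Alas2*, reached at most 12.9 FPKM in any library. The libraries were made with a stranded kit, but whether reads were counted by strand is not given in the sources used here.

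*Alas1* (chr9:106233455-106248654) was the only one of the 9 genes that was not highest in liver. It had 57.9 FPKM in WT liver and 40.6 in liver labelled KO, 98.8 in WT heart and 113 in heart labelled KO. The 6 fibroblast libraries lay between 49.2 and 63.4 FPKM with a median of 57.2, so WT liver fell within their range, liver labelled KO below it and both hearts above it. From its lowest to its highest library *Alas1* spanned less than any other of the genes.

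FPKM is scaled to transcript length, so levels of the 2 genes were added. *Alas2* made up 93.6% of the summed *Alas1* and *Alas2* FPKM in WT liver and 96.2% in liver labelled KO. In heart the share was 66.0% in the WT embryo and 53.1% in the embryo labelled KO. In no fibroblast library did it pass 0.556%. The sum itself was 907 and 1076 FPKM in liver, 290.3 and 242 in heart and 49.2 to 63.6 in fibroblasts.

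**Figure D2:**
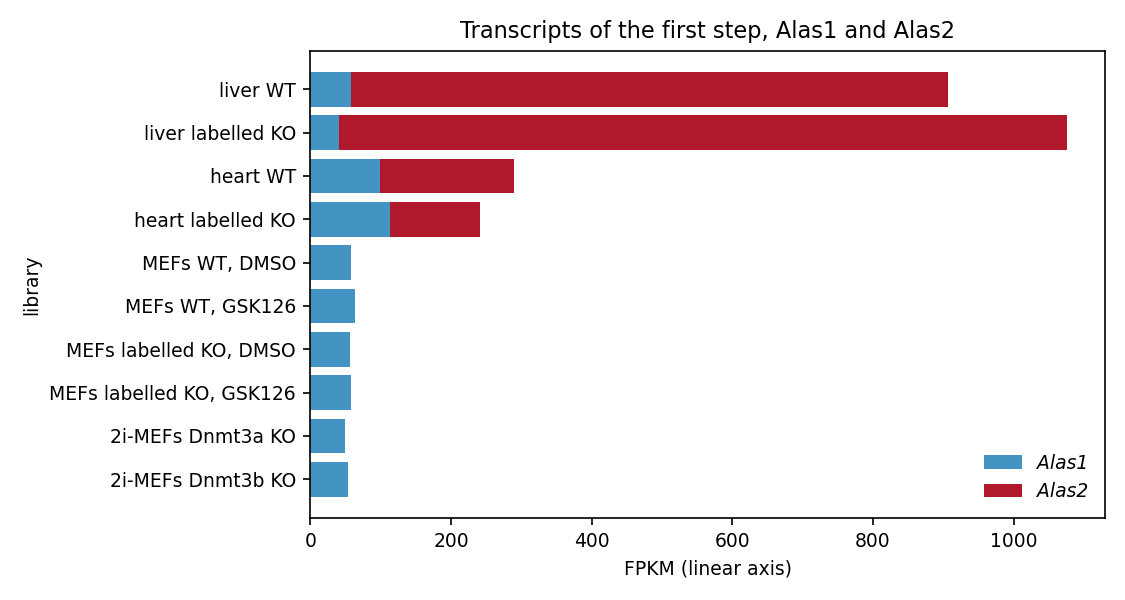
FPKM of *Alas1* (blue) and *Alas2* (red) stacked on a linear axis, 1 bar for each library. *Alas2* fills most of both liver bars, 66.0% and 53.1% of the heart bars and no visible part of the fibroblast bars.

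The cytosolic enzymes came next in the pathway. *Alad* (chr4:62509169-62519918), which joins 2 molecules of aminolevulinate, had 711 FPKM in WT liver and 800.3 in liver labelled KO, 59.4 and 52.8 in the hearts, and 17.7 to 24.96 in fibroblasts. Each heart lay above every fibroblast library.

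*Uros* (chr7:133686243-133710072), which closes the ring, had 179 FPKM in WT liver and 183 in liver labelled KO. The hearts had 11.7 FPKM in the WT embryo and 9.35 in the embryo labelled KO, within the fibroblast range of 5.07 to 12.2. *Bccip*, on the opposite strand, overlaps it and reached 138.8 FPKM, so reads of the 2 genes may not be separable. *Urod* (chr4:116989965-116994413), which trims the side chains of the ring, had 1139.6 and 1330.5 FPKM in liver, 154 and 143 in heart and 70.1 to 86.4 in fibroblasts. It was the highest of the pathway genes in every fibroblast library, and each heart lay above all of them.

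The last steps are mitochondrial. *Cpox* (chr16:58670208-58680391), whose enzyme oxidises the ring precursor, had 371 FPKM in WT liver and 325 in liver labelled KO, but 8.27 and 8.64 in heart, within the fibroblast range of 7.19 to 12.6. *Ppox* had 156 and 172 FPKM in liver, 14.4 and 11.9 in heart and 9.08 to 11.999 in fibroblasts, and it overlaps *B4galt3* (at most 30.2 FPKM) on the opposite strand. *Fech*, which encodes ferrochelatase, had 375 FPKM in WT liver and 421 in liver labelled KO, 42.6 and 35.0 in heart and 23.8 to 30.7 in fibroblasts, and both hearts lay above all fibroblasts. The heart level of *Alas2*, *Alad*, *Urod* and *Fech* stood above fibroblasts, while that of *Uros* and *Cpox* did not.

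Among the iron genes, *Slc25a37* (chr14:69241848-69285112) had the widest step between liver and other libraries. It had 409 FPKM in WT liver, 450.4 in liver labelled KO, 7.39 in WT heart and 4.16 in heart labelled KO. In WT MEFs it had 1.82 FPKM with DMSO and 2.37 with GSK126, and in MEFs labelled KO 5.34 and 2.17. The 2i-MEFs had 3.33 FPKM as *Dnmt3a* KO and 4.19 as *Dnmt3b* KO. The lower liver library was 55.4 times the highest other library, against 4.43 to 25.8 times for the other 7 genes that were highest in liver.

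*Tfrc* (chr16:32608920-32632794) was the only one of the 9 genes with less in both hearts than in every fibroblast library. It had 189.7 FPKM in WT liver, 175 in liver labelled KO, 5.27 in WT heart and 2.68 in heart labelled KO. In WT MEFs it had 12.9 FPKM with DMSO and 13.9 with GSK126, and in MEFs labelled KO 8.91 and 7.496. The 2i-MEFs had 16.9 FPKM as *Dnmt3a* KO and 14.6 as *Dnmt3b* KO. Markers of dividing cells moved in the same order only in part, since their 8 genes summed to 1629 to 1661 FPKM in liver, 570.2 to 616 in heart and 139.5 to 242 in fibroblasts, and their part in the *Tfrc* levels was not tested.

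The question which genes differ between tissues could be tested, because liver and heart of the same 2 embryos were sequenced. limma was fitted to log2(FPKM + 1) of 13714 genes with the embryo as a block. The embryos also differ in their label, so the residual of this fit is the difference of the tissue effect between the embryos. All 9 genes were called at an adjusted p under 0.05, with 8 higher and 1 lower in liver. Of all genes tested, 32.9% were called higher and 30.2% lower, so a call by itself was common. The median difference was 3.73 on the log2 scale over the 9 genes and 0.08 over all genes tested.

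The largest difference was that of *Slc25a37*, which was 65.4-fold higher in liver in FPKM + 1 (log2 difference 6.03 ± 0.23 SE, adjusted p = 0.000154). It ranked 55 of 13714 genes from the highest. *Tfrc* was 38.1-fold higher (5.25 ± 0.20, adjusted p = 0.000154, rank 104) and *Cpox* 36.8-fold higher (5.20 ± 0.13, adjusted p = 0.000101, rank 106). The iron importers and the late enzyme CPOX were thus the members with the widest tissue difference.

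*Uros* was 15.9-fold higher in liver (3.99 ± 0.14), *Alad* 13.2-fold (3.73 ± 0.13), *Fech* 10.1-fold (3.33 ± 0.15) and *Urod* 8.27-fold (3.05 ± 0.12), with adjusted p between 0.000132 and 0.000205. Of the 8 genes higher in liver, *Alas2* had the smallest difference although it is the erythroid isozyme, at 5.95-fold (2.57 ± 0.22, adjusted p = 0.000907, rank 598). The liver level of *Alas2* exceeded those of *Alad*, *Cpox* and *Fech*, and its mean heart level of 159.9 FPKM was the highest of the 9 genes. In heart labelled KO alone, *Urod* was above it, at 143 against 128 FPKM. *Alas1* was 2.16-fold lower in liver (−1.11 ± 0.20, adjusted p = 0.0076). *Ppox* was 11.7-fold higher (3.55 ± 0.15).

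Both embryos showed each direction. The 8 genes were at least 2-fold higher in liver in both embryos, as were 16.4% of all genes tested. *Alas1* was lower by 0.76 on the log2 scale in the WT embryo and by 1.46 in the embryo labelled KO, so that only the embryo labelled KO passed 2-fold. Except for *Cpox*, whose log2 ratio was 5.33 in the WT embryo and 5.08 in the embryo labelled KO, the tissue difference was wider in the embryo labelled KO, with *Alas2* going from 2.14 to 3.00 and *Slc25a37* from 5.61 to 6.45. The median log2 ratio of genes with at least 1 FPKM in both tissues was 0.13 in the WT embryo and 0.06 in the embryo labelled KO, small beside these values. The share of all genes with a wider difference in the embryo labelled KO was not counted. In the same order of embryos, the median ratio was 4.90 and 6.12 for erythroid markers and 7.86 and 9.13 for hepatocyte markers. It narrowed for macrophage markers (1.75 and 1.27) and proliferation markers (1.54 and 1.42). In bulk tissue, fewer cells of a type and less RNA per cell cannot be told apart.

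**Figure D3:**
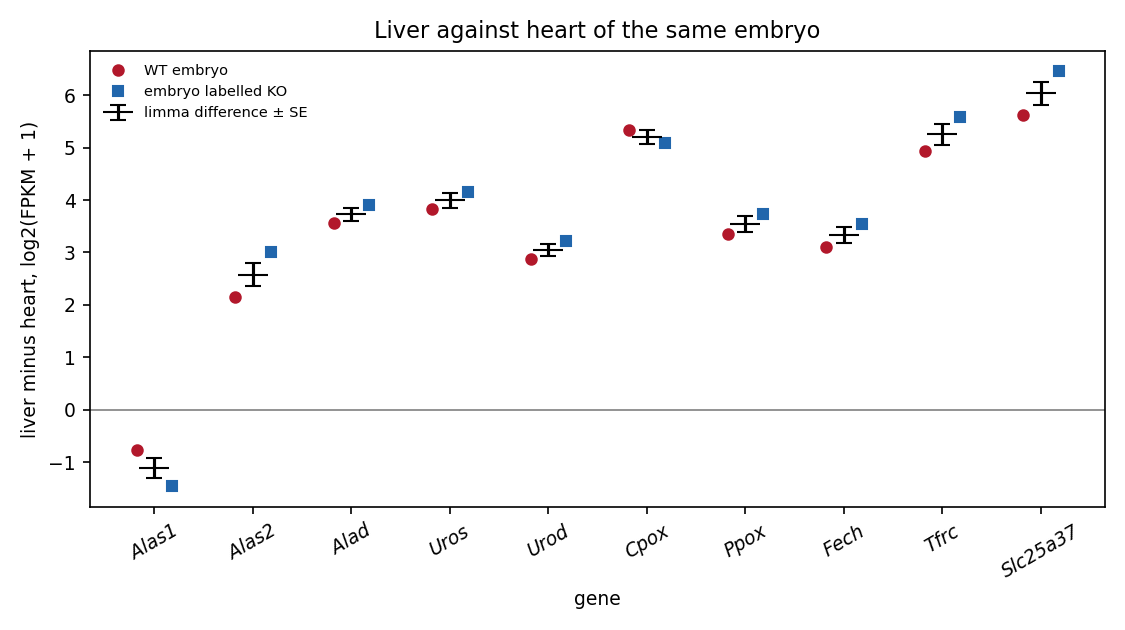
Difference of log2(FPKM + 1) between liver and heart for the 9 genes and *Ppox*, with circles for the WT embryo, squares for the embryo labelled KO and bars for the limma estimate ± SE. *Alas1* alone lies below 0, and *Slc25a37* is highest at 6.03.

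Globin RNA was abundant in heart, so the heart levels of the heme genes were set beside those of red cell genes, as a percent of liver in the same embryo. *Alas2* in heart was 22.6% of its liver level in the WT embryo and 12.4% in the embryo labelled KO. The adult globins ranged on both sides of these shares, with *Hbb-bs* at 18.9% and 9.66%, *Hbb-bt* at 43.6% and 10.7%, *Hba-a1* at 34.2% and 19.9% and *Hba-a2* at 35.7% and 18.5%. *Slc25a37* was at 1.80% and 0.924%, and *Tfrc* at 2.78% and 1.54%. Among the genes of erythroid transcription factors, *Gata1* was at 1.149% and 0.626%, *Klf1* at 0.695% and 0.364%, *Nfe2* at 1.27% and 1.18% and *Tal1* at 3.60% and 3.78%. *Slc25a37* and *Tfrc* thus lay far below *Alas2*, within the range of these 4 genes in each embryo.

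The other enzymes were also present in fibroblasts, which had red cell markers near 0. *Cpox* was at 2.23% and 2.66% of liver, below *Tfrc* in the WT embryo and above it in the embryo labelled KO. The next were *Uros* at 6.52% and 5.10%, *Alad* at 8.36% and 6.60%, *Fech* at 11.3% and 8.32% and *Urod* at 13.5% and 10.7%. *Alas1* exceeded its liver level, at 171% and 279%. The 11 erythroid markers found had a median of 2.41% in the WT embryo and 1.39% in the embryo labelled KO, and *Ank1*, a gene of the red cell membrane skeleton, stood out at 27.5% and 30.3%. Globins of primitive red cells were not alike. *Hbb-y* was at 618% and 763% of liver and *Hba-x* at 585% and 799.6%, while *Hbb-bh1* was at 26.8% and 38.3%. The 8 hepatocyte markers in heart were at 0.0430% to 0.534% of liver, below every one of the 9 genes.

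**Figure D4:**
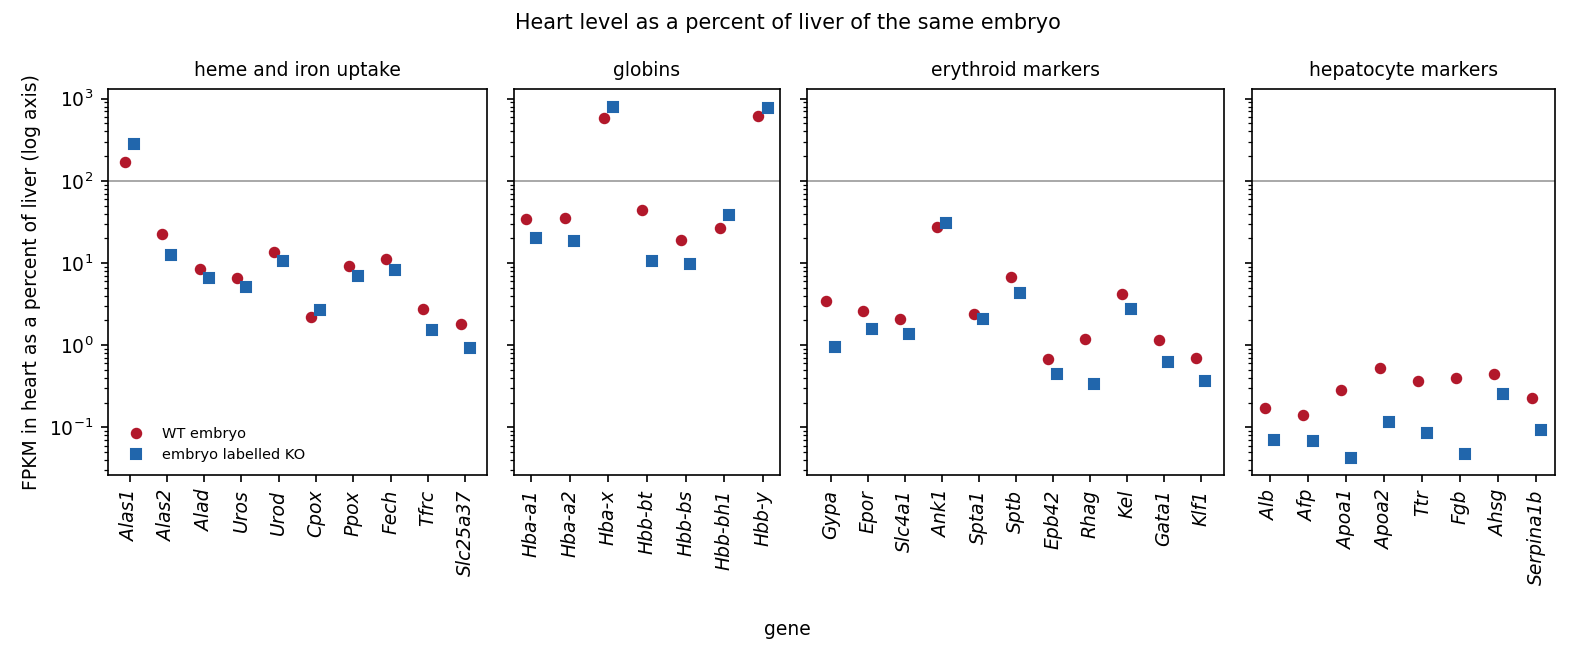
Heart FPKM as a percent of liver FPKM of the same embryo, on a log axis, with circles for the WT embryo and squares for the embryo labelled KO. *Alas2* lies in the range of the adult globins, *Slc25a37* and *Tfrc* in that of most erythroid markers, and within each embryo the hepatocyte markers lie below all of these.

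Red cell markers in the fibroblasts were near 0. The 8 globins summed to 0.491 to 4.15 FPKM in MEFs and were all listed at 0 in 2i-MEFs, and the 11 erythroid markers summed to 1.61 to 2.62 FPKM in the 6 libraries. In liver the same sums were 120077 and 161654 FPKM for globins and 4415 and 4289 for erythroid markers. In heart they were 60977 and 54034 FPKM for globins and 133 and 93.6 for erythroid markers.

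Other genes of iron and heme handling were counted by lists, beside 32.9% of all genes called higher in liver and 30.2% called lower. Of 10 tested genes for further iron uptake and for mitochondrial iron and heme transport, 9 were higher in liver and 0 lower. *Tfr2*, the second transferrin receptor, was 26.1-fold higher in FPKM + 1 (4.71 ± 0.23, adjusted p = 0.000249). It had 37.0 and 37.7 FPKM in liver but 0.837 and 0.172 in heart. It thus passed the filter through liver, and its fold depends on the added 1. *Slc25a38*, which carries glycine for the first step into mitochondria, was 13.1-fold higher (3.71 ± 0.14, adjusted p = 0.000154). Among 12 genes of iron storage, export and control, 8 were higher and 0 lower. *Hamp*, among the 8, was listed at 0 in both hearts and passed the filter through liver. *Trf*, which encodes the plasma iron carrier transferrin, was 100.5-fold higher (6.65 ± 0.41), and *Slc40a1*, the iron exporter ferroportin, 9.14-fold (3.19 ± 0.19). Transferrin is a product of hepatocytes. In heart, *Trf* had 30.1 FPKM in the WT embryo and 58.5 in the embryo labelled KO, where the hepatocyte markers summed to 55.9 and 13.1. The part of hepatocytes in the difference of *Trf* was not tested.

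Of the 7 genes of iron-sulfur cluster assembly, 6 were higher in liver and 0 lower, led by *Glrx5* at 4.404-fold (2.14 ± 0.10) and *Nfs1* at 2.36-fold (1.24 ± 0.13). In heme breakdown, 3 of 4 genes were higher and 1 lower. *Blvrb*, a reductase abundant in red cells, was 17.7-fold higher (4.15 ± 0.10), *Hmox1*, the inducible heme oxygenase, 5.37-fold higher (2.42 ± 0.21), and *Hmox2*, the constitutive one, was 1.53-fold lower (−0.62 ± 0.15, adjusted p = 0.02). Of 9 regulators, 7 were higher and 0 lower, and *Klf1* and *Gata1* had the largest differences, 138.8-fold (7.12 ± 0.19) and 67.5-fold (6.08 ± 0.18). Each list's median exceeded that of all genes, with 2.77 for uptake and transport, 1.004 for storage, export and control, 1.08 for iron-sulfur clusters, 1.98 for heme breakdown and 2.76 for regulators.

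In the marker lists, read against the same 32.9% and 30.2%, all 11 erythroid genes tested, all 8 hepatocyte genes, all 7 macrophage genes tested and all 8 proliferation genes were higher in liver. All 8 cardiomyocyte genes and 7 of 8 fibroblast genes were lower. *Fgb* in both hearts, and *Myh6*, *Nppa* and *Ryr2* in both livers, were below 1 FPKM and passed the filter through the other tissue. Of 7 globins tested, 5 were higher and 2, *Hbb-y* (−2.78 ± 0.11) and *Hba-x* (−2.77 ± 0.14), were lower. The part of each cell type in the differences of the 9 genes was not tested.

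The effect of the label *Dnmt3a* KO was compared within each tissue, with 1 library on each side and therefore no test. In liver, 0 of the 9 genes passed 2-fold in FPKM + 1 in either direction, against 3.21% of all genes. The log2 ratios ran from −0.50 for *Alas1* to 0.29 for *Alas2*, with a median of 0.14. Marker sums moved beside them between the liver labelled WT and that labelled KO. The globin sum went from 120077 to 161654 FPKM, while the erythroid sum went from 4415 to 4289, with 4 of the 11 genes tested higher, 7 lower and a median log2 ratio of −0.03. The hepatocyte sum went from 22631 to 15317, the fibroblast sum from 540.3 to 293, the macrophage sum from 253 to 164 and the cardiomyocyte sum from 70.1 to 18.6, and their part in these ratios was not tested. In heart, again 0 of 9 passed, against 3.12% of all genes. There the lowest ratios were −0.77 for *Tfrc*, −0.70 for *Slc25a37* and −0.57 for *Alas2*, the highest was 0.20 for *Alas1*, and the median was −0.27 against 0.00 over all genes. The summed erythroid markers moved with them, from 133 to 93.6 FPKM. So did the summed hepatocyte markers, from 55.9 to 13.1 FPKM. *Alb*, *Afp*, *Apoa2* and *Ahsg*, above 1 FPKM in both hearts, had log2 ratios of −1.76, −1.64, −1.94 and −0.84. The other hepatocyte markers were below 1 FPKM in the heart labelled KO. The globin sum went from 60977 to 54034 FPKM. Of 7 globins tested, 4 were lower (−0.40 to −0.77) and 3, *Hba-x*, *Hbb-y* and *Hbb-bh1*, were higher (0.20 to 0.61). The part of these lists in the ratios of the heart was not tested.

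In MEFs with DMSO, 1 of the 8 genes that passed the filter of 1 FPKM was 2-fold or more higher in the library labelled KO, while 5.63% of all genes passed 2-fold in either direction. This was *Slc25a37*, at a log2 ratio of 1.17 from 1.82 to 5.34 FPKM, or from at most 186 to at most 779 reads. With GSK126 its ratio was −0.09, 0 of the 8 genes passed 2-fold, and 5.07% of all genes did. *Tfrc* was lower in the libraries labelled KO with both treatments, by 0.49 with DMSO and by 0.81 with GSK126 on the log2 scale, as was *Alad*, by 0.36 and 0.37. *Cpox* was higher with both, by 0.32 and 0.42. The summed macrophage markers were 790.1 and 809.9 FPKM in WT and 522 and 548 in the libraries labelled KO. The summed fibroblast markers went from 12150 in WT to 9473 in the library labelled KO with DMSO, with 7 of 8 genes lower, and from 9120 to 6156 with GSK126, with 8 of 8 lower. Of the cardiomyocyte genes with DMSO, *Tnnt2* went from 1.49 FPKM in WT to 6.42 in the library labelled KO. *Tnni3* went from 0.361 to 2.00 FPKM and passed the filter only through the library labelled KO. The sum of that list went from 2.31 to 10.2 FPKM, against 9.38 and 10.2 with GSK126. The part of these lists in the ratios was not tested.

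GSK126 was tested against DMSO by limma in the 4 MEF libraries, with the labelled genotype as a block. Of 13192 genes, 2 were called (0.0152%), and 1065 had an unadjusted p under 0.05. None of the 8 genes tested was called, and 0 of them had an unadjusted p under 0.05. Adjusted p was lowest for *Cpox*, at 0.719, with a log2 difference of 0.25 ± 0.16. *Slc25a37* had the largest estimate and the largest error, −0.37 ± 0.36, since its log2 ratio was 0.26 in WT MEFs and −1.002 in MEFs labelled KO. Within WT MEFs, 0 of 8 genes passed 2-fold, against 3.0% of all genes. Within MEFs labelled KO, *Slc25a37* alone passed it, as the 1 gene of 8, against 4.54% of all genes, and once the median over all genes was subtracted its log2 ratio came to −0.97 and did not pass. Markers moved with the treatment in the same libraries. The proliferation sum went from 218 to 139.5 FPKM in MEFs labelled KO, with 8 of 8 genes lower and a median log2 ratio of −0.66, and from 242 to 163 in WT MEFs, with 7 of 8 lower and a median of −0.69. The fibroblast sum went from 9473 to 6156 FPKM in MEFs labelled KO, with 7 of 8 lower, and from 12150 to 9120 in WT MEFs, with 6 of 8 lower. The part of these lists in the ratios was not tested. Both the ratio of *Slc25a37* here and its ratio between labels with DMSO rest on the single library labelled KO with DMSO, since the comparisons of MEFs share libraries. None of the tested genes on the lists of iron and heme handling was called.

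In 2i-MEFs, *Dnmt3a* KO was compared with *Dnmt3b* KO, again 1 library each. None of the 8 genes passed 2-fold, against 7.92% of all genes. *Fech* had the highest ratio of them, 0.35 on the log2 scale, and *Uros* the lowest, −0.32. *Alas2*, which did not pass the filter, had 0 and 0.296 FPKM.

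**Figure D5:**
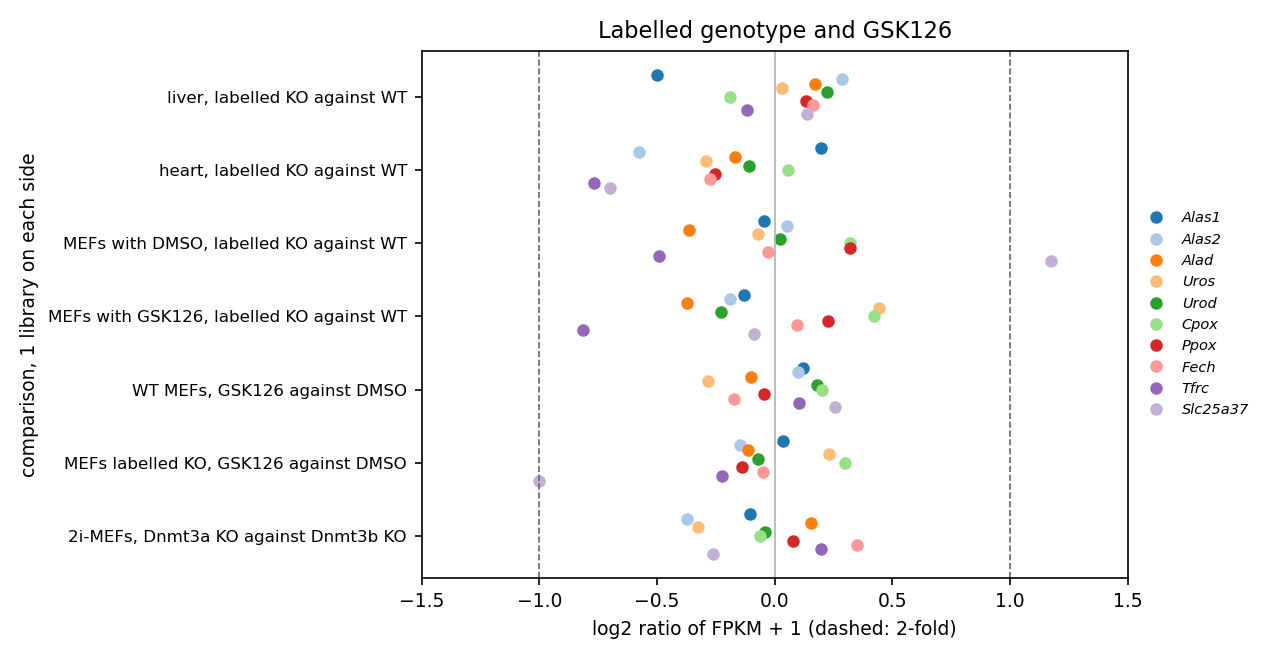
Log2 ratios of FPKM + 1 for the 9 genes and *Ppox* in 7 comparisons with 1 library on each side, with dashed lines at 2-fold. *Slc25a37* passes the lines in MEFs with DMSO (1.17) and touches the lower one with GSK126 in MEFs labelled KO (−1.002), and no other point passes them.

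Across the 10 libraries, the genes of the pathway after the first step and *Slc25a37* followed one another closely. Pearson's r of log2(FPKM + 1) was 0.99 between *Slc25a37* and *Fech*, 0.94 between *Alad* and *Cpox*, the lowest among these 6 genes, and 0.72 between *Alas2* and *Cpox*. *Alas1* had an r of −0.67 with *Tfrc* and 0.23 with *Alas2*. These are descriptions over 10 libraries, of which 2 are liver, and the liver libraries set most of the spread.

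Among 14150 genes that averaged 1 FPKM or more in the 10 libraries, the pattern most like *Alas2* was that of the adult globin *Hbb-bs* (r = 0.997), then *Ank1* (0.996) and *Gm15816* (0.996). *Slc25a37* was most like *Ppox* (0.995), *Gm16538* (0.994) and *G6b* (0.994). *Tfrc* was most like *Sfxn1* (0.986), which encodes a mitochondrial serine carrier, and *Klf16* had an r of 0.984. *Alas1* was most like *Atp6v1g2* (0.989), *Mllt1* (0.970) and *Syne1* (0.965). *Hbb-bs* and *Ank1* share with *Alas2* an intermediate level in heart (7184 and 4226 FPKM for *Hbb-bs*, 38.8 and 38.9 for *Ank1*), while *Ppox* in heart lay near its fibroblast level.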

How the data were processed

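Reads were trimmed by the authors (cutadapt) and aligned to the mm10 genome (TopHat with Bowtie2, GENCODE M15 annotation), and FPKM was calculated by Cufflinks 2.2.1. The deposited table holds FPKM and no read counts, and rows of the same symbol were summed. Where the submitters' notes and the methods name different versions, none is given. The 16 DNA methylation samples were not used here.

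Tests ran on log2(FPKM + 1) of genes that averaged 1 FPKM or more in the libraries compared, with limma 3.58.1 (eBayes with trend, R 4.3.3) and Benjamini-Hochberg adjustment over all genes. Liver and heart were paired by the embryo number in the labels, and their deviations between embryos correlated with r = −0.01. DMSO and GSK126 were paired by labelled genotype (r = 0.25). Each p-value rests on 4 libraries, which leave a single residual degree of freedom for a gene once the block is fitted. limma moves the error of each gene towards a trend over all genes. The SE and p-value thus reflect spread shared over genes and do not measure spread within a condition. Comparisons with 1 library on each side have no test and use a threshold of 2-fold in FPKM + 1.

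Depth was estimated from low FPKM values of genes with 1 transcript. The depth and fragment length were chosen that brought these values nearest to whole reads. After this choice 96.8% to 98.1% of them fell within 0.1 of whole reads, against 20% if spread evenly. That share is not an independent check, because the same values set the depth. Depth covers counting error only. Reads of a gene are given for its longest transcript, as an upper limit, unless the shortest is named. Coordinates are those of the table with 1 added to starts, and 50561 of 52462 starts equal GENCODE M21. Promoters came from RefSeq.

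The 9 genes and all lists were chosen with earlier results of these data known. All 9 are named throughout, with *Ppox*, the 2 largest changes in each direction of each list, and the 3 genes most correlated with *Alas2*, *Slc25a37*, *Tfrc* and *Alas1*, and genes of these that are not named are not reported here. *Flvcr1* and *Ahsp* were listed but not analysed here. Alternatives were a pseudocount of 0.1, centring on the median gene, scaling of the genes other than globins to equal totals, no filter, no block, a 1.5-fold threshold, single embryos or genotypes, and Spearman's correlation. Python 3.11.15, numpy 2.4.6 and pandas 2.3.3 were used.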

Additional observations from a re-analysis of the deposited data

Results flagged for a closer look

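Labelled KO against WT pointed opposite ways in heart and liver for 8 of the 9 genes, and for 49.2% of the 11511 genes tested in both tissues. With 1 library on each side, such a difference was not tested, and the values below are the log2 ratio in heart minus that in liver. The value was 0.70 for *Alas1* and 0.25 for *Cpox*, which were higher in the heart and lower in the liver labelled KO. It was −0.86 for *Alas2*, −0.84 for *Slc25a37*, −0.44 for *Fech*, −0.34 for *Alad*, −0.33 for *Urod* and −0.33 for *Uros*, which were lower in the heart and higher in the liver labelled KO. *Tfrc* was lower in both.

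In MEFs the ratio between labels pointed opposite ways with DMSO and with GSK126 for 4 of the 8 genes tested, and for 40.3% of the 12669 genes tested in both treatments, again untested. DMSO minus GSK126 was 1.26 for *Slc25a37*, 0.25 for *Urod*, −0.52 for *Uros* and −0.12 for *Fech*. The opposite signs of *Urod* were lost with centring, at −0.007 with DMSO and −0.23 with GSK126, and those of *Fech* when the genes other than globins were scaled to equal totals, at 0.03 and 0.10. With that scaling *Alas1* had opposite signs instead, 0.02 and −0.12. Globins were at most 0.000585% of the FPKM total in MEFs, and with DMSO the totals were 709113 in WT and 677171 in the library labelled KO, so the scaling acts there through the totals. *Slc25a37* was the only gene among them with a ratio past 2-fold in either treatment, 1.17 with DMSO.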

How the results depend on the processing

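In the liver against heart fit, 8 genes were higher and 1 lower under all 5 alternatives (pseudocount 0.1, centring, equal totals of the genes other than globins, no filter, no replicate block), and single embryos kept each direction. Without the embryo block, 8822 genes were called in place of 8658. For GSK126, the 2 calls among all genes became 5 with a pseudocount of 0.1, 7 with centring and 0 without a filter, where 1344 genes had an unadjusted p under 0.05, and were 2 without the block and with equal totals. None of the 8 genes tested was called in these fits, nor any of 9 without a filter. With a 1.5-fold threshold, 1 gene was lower in liver than heart in the WT embryo (*Alas1*), 2 were lower in heart labelled KO (*Slc25a37* and *Tfrc*) and 1 in MEFs labelled KO with GSK126 (*Tfrc*), in place of 0 each, where 29.0%, 4.56% and 7.64% of all genes were lower by that threshold. With centring, 0 genes in place of 1 passed 2-fold for GSK126 in MEFs labelled KO, where *Slc25a37* came to −0.97. Of 270 alternative ratios and medians, 3 moved by 1.5-fold or more, all of *Alas2* in fibroblasts with a pseudocount of 0.1, and 0 reversed past the threshold. By Spearman's correlation, 11 of the 12 genes most like a member were no longer among its closest 3, and *Mllt1* for *Alas1* was. With 1 library per condition, no spread within a condition was measured. *Alas2* in fibroblasts, at 5 reads or fewer, is limited by depth. For *Slc25a37* in MEFs with DMSO, the reads depend on the transcript taken. From its shortest to its longest transcript they were 5 to 186 in WT and 21 to 779 in the library labelled KO. Whether depth limits that gene was not tested.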
